A study of Artemisia argyi with 3 samples.

Results

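The 84 unigenes described here were chosen from the expression table by their own FPKM values: each was above 1 FPKM in leaf, root and stem of *Artemisia argyi*, and its value in leaf was more than 8 times its value in root and also more than 8 times its value in stem. FPKM counts sequenced fragments relative to the length of the unigene and to the mapped fragments of the library, so that levels of unigenes of different length can be compared. A unigene is a non-redundant sequence of the de novo assembly, and it may be a whole transcript, a piece of one or an alternative form of one. The table lists 88,591 unigenes, of which 24,505 were above 1 FPKM in all 3 tissues and are called shared below. The 84 leaf-high unigenes are 0.343% of the shared ones.

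Leaves, roots and stems came from mature plants of a herb garden, and the labels name no treatment, genotype, strain or age beyond maturity. Tissue of 5 plants was pooled and sequenced as 1 library per tissue. There was thus 1 value per unigene and tissue, no difference between tissues has a replicate check, and no p-value or standard deviation is given. In such whole-organ RNA, more cells of a type and more RNA per cell cannot be told apart. The FPKM values of a library summed to between 684,729 and 745,319, and between 61,228 and 67,057 unigenes were above 0. The number of fragments behind a value, and so its counting error, is unknown.

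*A. argyi* is a mugwort of the daisy family whose dried leaves are burned in moxibustion. Leaves of this genus carry glandular trichomes, hairs on the leaf surface that make and store volatile oil rich in monoterpenes and sesquiterpenes, and the leaf is also the main site of photosynthesis. Roots and stems lack much of that photosynthetic tissue and hold more conducting tissue, while stem and leaf together form the green shoot. A gene can therefore be high in leaf alone, or high along the whole shoot and low in root. The table gives unigenes by identifier only and pairs none with a gene name, so no enzyme or protein is assigned to any of the 84, and the labelled tissues could not be checked against marker genes. No sequence of an assembled unigene was given in the files.

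In leaf the 84 unigenes had a median of 69.6 FPKM, with quartiles of 37.1 and 116.6 and a range of 11.9 to 1558. Their median was 2.73 FPKM in root, with quartiles of 1.65 and 5.14, and 5.06 FPKM in stem, with quartiles of 2.50 and 9.11. Levels in root ran from 1.01 to 180.7 FPKM and in stem from 1.07 to 60.97 FPKM. The other 24,421 shared unigenes had medians of 7.73 FPKM in leaf, against 5.01 in root and 7.98 in stem. The leaf-high unigenes were thus above the typical shared unigene in leaf and below it in both other tissues, which the rule that picked them favours. All 84 exceeded 10 FPKM in leaf and 28 exceeded 100 FPKM. In root 27 of them were at or below 2 FPKM and 7 were above 10 FPKM, and in stem 18 were at or below 2 FPKM and 16 above 10 FPKM.

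**Figure D1:**
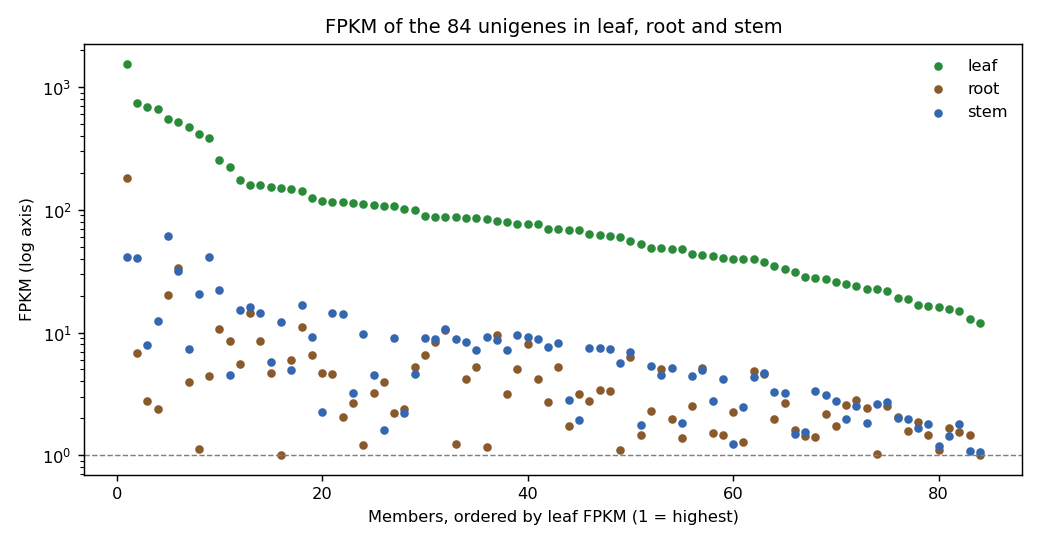
FPKM on a log axis of the 84 leaf-high unigenes in leaf (green), root (brown) and stem (blue), ordered by their leaf value, with 1 point per unigene and tissue and a dashed line at 1 FPKM. Leaf values run from 1558 to 11.9 FPKM, and root and stem values lie between 1.01 and 180.7 FPKM.

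The amount of leaf RNA that these unigenes held was set by a few of them. Together they made up 1.53% of all FPKM in leaf, against 0.0783% in root and 0.0962% in stem. The highest unigene accounted for 13.6% of their leaf sum, the 5 highest for 36.9% and the 10 highest for 54.9%. That highest unigene, CL12442.Contig4, had 1558 FPKM in leaf, against 180.7 in root and 41.6 in stem and ranked 16th among all unigenes in leaf. It was also the highest of the 84 in root. Unigene8763 had 747 FPKM in leaf, against 6.85 in root and 40.8 in stem, and CL6714.Contig5 had 684 in leaf, against 2.77 in root and 7.96 in stem. CL2060.Contig1 was close to these in leaf, with 669 FPKM, against 2.40 in root and 12.4 in stem. Unigene2737 had 549 FPKM in leaf, against 20.3 in root and 61.0 in stem, the highest stem value of the 84. CL6087.Contig2 had 521 FPKM in leaf, against 33.6 in root and 31.6 in stem. High leaf values were thus found over traces of the same unigene in root, as for CL2060.Contig1. They were also found over clear expression in both other tissues, as for CL6087.Contig2. Other sequences with the prefix CL2060 were higher in root, as given below.

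The most abundant transcripts of the leaf were mostly outside this set, and more of them fell short of 8-fold over stem than over root. None of the 10 most abundant leaf unigenes was among the 84, and 4 of the 100 most abundant and 19 of the 1000 most abundant were. Of all shared unigenes, 0.343% were in the set. The 100 and the 1000 most abundant thus held more of the set than that share, which a rule asking for high leaf values favours. All 100 of the most abundant leaf unigenes were shared. Of these, 33 passed 8-fold over root, while 6 passed it over stem. Among the 10 most abundant, 5 passed 8-fold over root and 0 passed it over stem. Over all shared unigenes, 831 (3.39%) passed 8-fold over root and 161 (0.657%) passed it over stem. The 84 are the overlap of these, which leaves 747 that passed over root alone and 77 that passed over stem alone. By the same rule, 63 unigenes (0.257%) were higher in root and 106 (0.433%) in stem. These counts compare single libraries, use the contrasts that the rule itself uses and hold on the deposited scale. Median-ratio scaling shifts the log2 ratio of leaf to root by -0.64 and that of leaf to stem by -0.02. It thus lowers folds over root more than folds over stem, so the gap between the counts for root and stem depends on the scale.

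**Figure D2:**
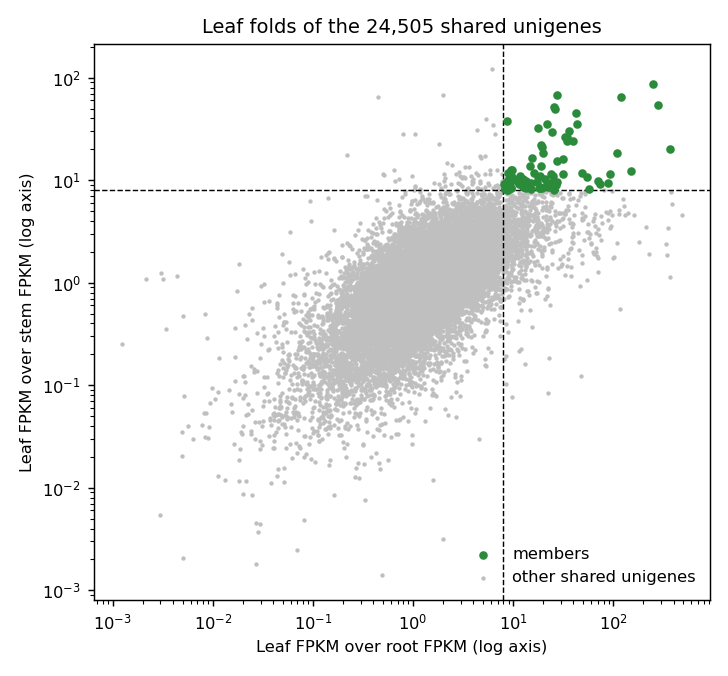
FPKM in leaf over FPKM in root (x, log axis) against FPKM in leaf over FPKM in stem (y, log axis) for the 24,505 shared unigenes, with the 84 leaf-high unigenes in green, the others in grey and dashed lines at 8-fold. On the deposited scale, more unigenes lie right of the vertical line (831) than above the horizontal line (161).

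The smaller of a unigene's folds, leaf over root or leaf over stem, decided whether it entered the set. It had a median of 9.80 over the 84, with quartiles of 8.66 and 16.6, against a median of 0.93 over the other shared unigenes. It was above 10 for 39 of the 84, above 16 for 22, above 32 for 5 and above 64 for 2. The fold over root had a median of 19.2 and a highest value of 370, and the fold over stem a median of 10.7 and a highest value of 85.9. Among the 6 unigenes with the largest smaller fold, 3 were contigs of cluster CL6714 and 2 were contigs of cluster CL5215. CL6714.Contig5 had the largest, with 247-fold over root and 85.9-fold over stem, and CL6714.Contig6 followed with 120-fold and 65.0-fold. CL2060.Contig1 stood at 279-fold over root and 54.0-fold over stem. CL5215.Contig3 reached 42.7-fold over root and 45.6-fold over stem, from 101 FPKM in leaf, against 2.37 in root and 2.22 in stem.

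The threshold cut through a crowded range. Unigene15850 was the nearest inside, with 21.93 FPKM in leaf, against 2.54 in root and 2.74 in stem and a smaller fold of 8.004. Next to it were Unigene5493, with 116.9 FPKM in leaf, against 4.59 in root and 14.5 in stem and a smaller fold of 8.05, and CL3501.Contig2, with 39.6, 4.90 and 4.30 FPKM and a smaller fold of 8.07. Just outside were CL12211.Contig1, with 277 FPKM in leaf, against 3.45 in root and 34.8 in stem and a smaller fold of 7.96, and Unigene14679, with 32.2, 1.38 and 4.06 FPKM and 7.93. The third was Unigene11518, at 7.90, with 682 FPKM in leaf, against 86.2 in root and 76.5 in stem. The table rounds values to 2 decimals, and at the worst rounding 83 of the 84 stayed above 8-fold, the exception being Unigene15850. Between 4-fold and 8-fold there were 456 further shared unigenes, with a median of 27.1 FPKM in leaf.

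The floor of 1 FPKM kept out many unigenes that passed the fold. A total of 7,839 unigenes passed 8-fold over both other tissues but reached no more than 1 FPKM in at least 1 of them. Of these, 6,578 were listed at 0 in root and in stem, and 237 were above 10 FPKM in leaf. Unigene11292, with 17.6 FPKM in leaf, against 1 in root and 1.86 in stem, and Unigene10176, with 27.1, 0.99 and 2.94 FPKM, missed the floor in root alone. Unigene15090 missed it at 0.96 FPKM in root, with 416 FPKM in leaf and 36.6 in stem. The lowest values inside were 1.01 FPKM in root for CL11191.Contig1, which had 151 FPKM in leaf and 12.2 in stem, and for Unigene17452, which had 11.9 in leaf and 1.07 in stem. Unigene17502 followed, with 22.6 FPKM in leaf, against 1.02 in root and 2.60 in stem. Whether a unigene at this edge belonged to the set thus turned on a few hundredths of FPKM in 1 library.

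The rule treats root and stem alike, so it did not set which of them was higher among the 84. It did limit the ratio of stem to root, since both had to be above 1 FPKM and more than 8-fold below leaf. That upper limit did not hold for the other shared unigenes, so shares at 2-fold and 4-fold are not fully alike between the sets. Stem was above root in 62 of the 84 (73.8%) and in 17,241 of the 24,421 other shared unigenes (70.6%). The median ratio of stem to root was 1.39 among the 84 and 1.42 among the others. Stem was at least 2-fold above root in 28 of the 84 (33.3%) and in 30.4% of the others, and at least 4-fold above in 11 (13.1%) and in 7.57%. Root was at least 2-fold above stem in 3 of the 84 (3.57%) and in 7.33% of the others. With 1 library per tissue none of these differences could be tested. How often stem was above root depended on the scale. After division by median-ratio size factors, of 1.18 in leaf, 0.755 in root and 1.16 in stem, which shift the log2 ratio of stem to root by -0.62, stem was above root in 38 of the same 84 (45.2%) and in 45.3% of the others. When the rule itself was applied to the scaled values, stem was above root in 52 of the 75 unigenes it chose (69.3%) and in 48.2% of the other 24,908 that were shared on that scale. With each library rescaled to the same sum, the rule chose 107, of which stem was above root in 81 (75.7%), against 67.3% of the other shared unigenes. The share thus lay near that of the other shared unigenes for the 84 on the deposited and the median-ratio scale, but above it for the unigenes chosen after either scaling, most of all after median-ratio scaling, and these gaps were not tested.

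**Figure D3:**
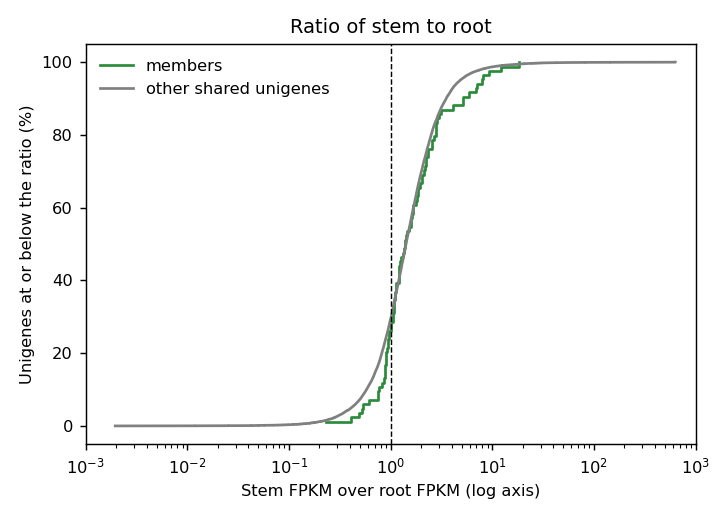
Cumulative share of unigenes (y, in %) by the ratio of stem FPKM to root FPKM (x, log axis), for the 84 leaf-high unigenes (green) and the other 24,421 shared unigenes (grey), with a dashed line at a ratio of 1. The curves run close together, with medians of 1.39 and 1.42.

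Single unigenes departed widely from these medians. CL12502.Contig2 had the highest ratio of stem to root, 18.2, from 20.6 FPKM in stem and 1.13 in root, below 419 FPKM in leaf. CL11191.Contig1 had a ratio of 12.1, and Unigene711 of 9.33, with 388 FPKM in leaf, against 4.42 in root and 41.3 in stem. In these 3, leaf was highest, stem intermediate and root lowest, an order that follows from the rule and from picking the highest ratios. It held for every one of the 84 with stem above root. The root values of CL12502.Contig2 and CL11191.Contig1, 1.13 and 1.01 FPKM, lay near the floor of 1 FPKM. At the other end was CL12442.Contig4, whose ratio of stem to root was 0.23, and after it came CL5215.Contig2, at 0.41, with 108 FPKM in leaf, against 3.97 in root and 1.61 in stem, and CL5215.Contig6, at 0.49, with 118, 4.68 and 2.27 FPKM. They are the only 3 of the 84 with at least 2-fold more in root than in stem. For 53 of the 84, root and stem were within 2-fold of each other. This is near the background, although the rule limits how far root and stem of the 84 can differ. Stem was at least 2-fold above root in 33.3% of the 84 and 30.4% of the other shared unigenes. Root was at least 2-fold above stem in 3.57% and 7.33%. Leaf-high unigenes with stem above root made up 49 of the 62 with a smaller fold between 8 and 16 (79.0%), 9 of the 17 between 16 and 32 (52.9%) and 4 of the 5 above 32. In the middle band 3 of the 8 with root above stem were contigs of cluster CL5215, and without that cluster stem was above root in 9 of 14. Outside the set, stem was above root in 356 of the 456 shared unigenes between 4-fold and 8-fold (78.1%). Among all shared unigenes outside the set it was 70.6%. These shares are on the deposited scale.

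By the prefix of their identifiers, 51 of the 84 were contigs of a TGICL cluster, a group of assembled sequences similar enough to be joined, and 33 were singletons. Cluster contigs made up 60.7% of the 84 and 61% of the other shared unigenes, so the set was not richer in either kind. Clusters of the 51 contigs had a median of 3 contigs in the table, as did those of the other shared contigs. Singletons had a median of 69.4 FPKM in leaf and a median smaller fold of 9.84, and cluster contigs of 76.6 FPKM and 9.76. The 16 unigenes with a smaller fold above 20 included 12 cluster contigs. All 5 leaf-high contigs of CL5215 and all 3 of CL6714 were among these 12. The count thus rests largely on 2 clusters and does not show that contigs reach larger folds than singletons. The largest smaller fold among singletons was 26.7, for Unigene7408, which had 153 FPKM in leaf, against 4.71 in root and 5.75 in stem. Unigene7408 is named here after its value was seen. The 51 contigs came from 40 clusters, so the 84 unigenes stand for 73 clusters and singletons. Counted over these 73, with the leaf-high contigs of a cluster summed, stem was above root in 54 (74.0%). Contigs of a cluster share sequence and are not independent of each other, since RSEM divides fragments that align to several of them.

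In 6 clusters 2 or more contigs were leaf-high, 17 contigs in all. CL5215 had the most, 5 of its 7 contigs. These 5 had 223, 118, 114, 108 and 101 FPKM in leaf (Contig4, Contig6, Contig1, Contig2 and Contig3), between 2.37 and 8.53 FPKM in root and between 1.61 and 4.50 FPKM in stem. Of the remaining pair, CL5215.Contig5 missed the fold narrowly, with 34.4 FPKM in leaf, against 1.60 in root and 4.48 in stem, and CL5215.Contig7 had 7.15, 0.22 and 5.12 FPKM. Summed over all its contigs, the cluster reached 707 FPKM in leaf, against 24.02 in root and 23.4 in stem, a smaller fold of 29.4. The high leaf level of CL5215 was therefore present in the sum of the cluster and in nearly each of its contigs.

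Cluster CL6714 had 3 leaf-high contigs of 6. Besides Contig5 and Contig6, described above, CL6714.Contig3 had 52.7 FPKM in leaf, against 1.45 in root and 1.76 in stem. CL6714.Contig1 had 41.4 FPKM in leaf and missed the floor at 0.72 in root, with 1.5 in stem. The whole cluster summed to 1258 FPKM in leaf, against 9.28 in root and 18.9 in stem, a smaller fold of 66.5, the largest of the 40 clusters. CL292 was larger, with 15 contigs, of which 3 were leaf-high: Contig7, Contig15 and Contig9 had 77.2, 43.3 and 39.7 FPKM in leaf, 5.07, 2.51 and 1.27 in root and 9.49, 4.46 and 2.45 in stem. All other 12 contigs of CL292 were highest in leaf too, and its sum was 456 FPKM in leaf, against 48.4 in root and 65.6 in stem, a smaller fold of 6.95. In the other 3 of the 6 clusters a pair of contigs was leaf-high. CL9086.Contig2 and Contig3 had 255 and 141 FPKM in leaf, 10.7 and 11.0 in root and 22.0 and 16.6 in stem. CL5171.Contig2 and Contig3 had 85.6 and 79.7 FPKM in leaf, 4.16 and 3.18 in root and 8.40 and 7.17 in stem. CL5615.Contig2 and Contig3 were nearly equal, with 63.2 and 62.3 FPKM in leaf, 2.78 and 3.42 in root and 7.45 and 7.44 in stem.

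The leaf fold of a cluster's sum was mostly smaller than that of its leaf-high contig, which the rule that picked these contigs favours. Adding a contig that failed 8-fold tends to lower the fold of the sum, so the drop is no separate result about the clusters. How far the sums fell beyond this was not tested. Summing all contigs of a cluster in the table, 14 of the 40 clusters passed 8-fold over both other tissues, and these held 21 of the 51 contigs. The sum was between 4-fold and 8-fold for 15 clusters, between 2-fold and 4-fold for 5 and at or below 2-fold for 6. In 39 of the 40 the sum was highest in leaf. When the rule was applied to clusters and singletons in place of unigenes, 55 of the 17,669 above 1 FPKM in all 3 tissues passed (0.311%). Taken singly, the 51 leaf-high contigs held a median of 43.1% of their cluster's leaf FPKM, with a range from 4.19% to 99.8%. The lowest was CL6714.Contig3, but the 3 leaf-high contigs of CL6714 together held 96.1%. The 5 of CL5215 together held 94.1%. In CL12502 the leaf-high contig held 99.8%, so contig and cluster were nearly the same. In CL2361 the leaf-high Contig1, with 40.1 FPKM in leaf, held 9.55%, and the cluster summed to 420 FPKM in leaf, against 3.43 in root and 9.34 in stem, a smaller fold of 44.9 against 17.7 for the contig. The other 5 contigs of CL2361, also named after their values were seen, were highest in leaf and at or below 0.69 FPKM in root, which kept them under the floor.

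**Figure D4:**
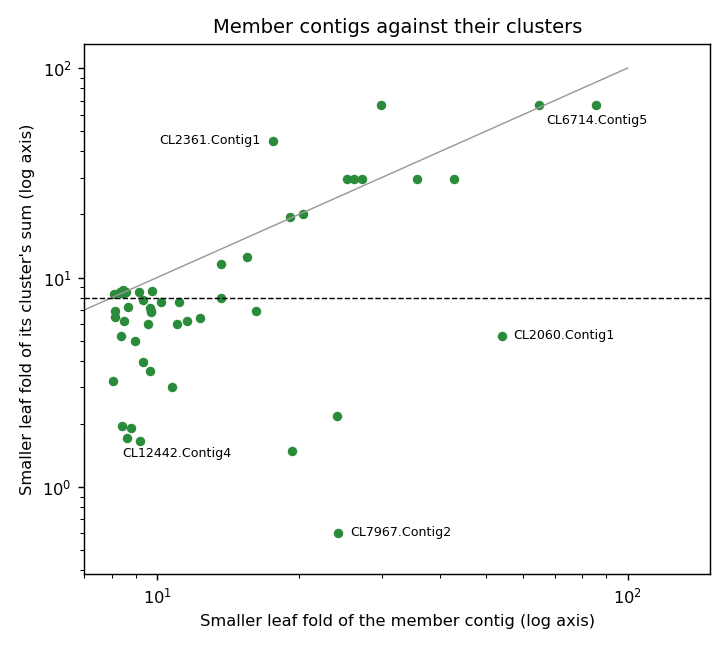
The smaller leaf fold of each of the 51 leaf-high contigs (x, log axis) against the smaller leaf fold of the sum of its cluster (y, log axis), with a solid line of equal folds and a dashed line at 8-fold. Of the 51 contigs 21 lie above the dashed line, and CL7967.Contig2 lies lowest, at 0.61-fold for its cluster.

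In 14 of the 40 clusters at least 1 further contig was highest in root or in stem. The 40 clusters held 128 further contigs. Of these, 83 (64.8%) had their highest value in leaf, 35 (27.3%) had it in root and 10 (7.81%) had it in stem. Ties were counted for leaf first and then for root, and no floor was applied. Only 48 of the 128 were above 1 FPKM in all 3 tissues. Among the 37,249 contigs of all other clusters with 2 or more contigs, leaf was the highest tissue for 39.0%, root for 22.3% and stem for 38.7%. Both sets were counted in the same way. The 40 clusters were picked through a leaf-high contig, and contigs of a cluster are not independent of each other. The gap between the shares was not tested and is no separate result about the further contigs. Of the 35 highest in root, 24 belonged to CL12442. That cluster had 25 contigs, of which Contig4 alone was highest in leaf. CL12442.Contig1 had 27.6 FPKM in leaf, against 419 in root and 22.9 in stem, the highest root value among the contigs beside the leaf-high ones, and it was itself more than 8-fold higher in root than in leaf and in stem. The cluster summed to 1617 FPKM in leaf, against 947 in root and 71.9 in stem, a smaller fold of 1.71, and Contig4 gave 96.4% of the leaf sum. CL2060.Contig1, with only traces in root, also lay beside contigs with clear root values. CL2060.Contig3 had 92.15 FPKM in leaf, against 131.56 in root and 31.58 in stem. The sum of CL2060 was 1021 FPKM in leaf, against 193 in root and 67.8 in stem, a smaller fold of 5.28.

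CL7967 was the only one of the 40 clusters with its sum highest in another tissue. Its sum was 166 FPKM in leaf, against 275 in root and 25.2 in stem, so leaf stood at 0.61 times root. The leaf-high CL7967.Contig2 had 110 FPKM in leaf, against 3.20 in root and 4.54 in stem, a smaller fold of 24.2. CL7967.Contig3 had 49.3 FPKM in leaf, against 223 in root and 2.79 in stem, and CL7967.Contig1 had 6.11, 47.1 and 0.30 FPKM. CL7967.Contig4 was listed at 0 in leaf and had 1.56 FPKM in root and 17.6 in stem. Contigs of this cluster thus had their highest value in leaf, in root or in stem. How far such differences reflect separate genes, forms of a gene or the division of shared fragments was not tested.

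In 5 clusters, CL12442 among them, the sum was highest in leaf by less than 2-fold over the next tissue, and CL5200 and CL140 had the smallest folds of these. CL5200.Contig1 had 31.3 FPKM in leaf, against 1.62 in root and 1.48 in stem, but its cluster of 6 contigs summed to 170 FPKM in leaf, against 81.0 in root and 115 in stem, a smaller fold of 1.48. CL140.Contig4 had 49.3 FPKM in leaf, against 2.29 in root and 5.35 in stem, and its cluster of 4 contigs 142, 85.7 and 83.2 FPKM, a smaller fold of 1.66. The highest stem value among the 128 further contigs was 76.4 FPKM, in CL5136.Contig2, which had 111 FPKM in leaf and 3.19 in root. The leaf-high contig of that cluster, CL5136.Contig1, had 68.3 FPKM in leaf, against 1.74 in root and 2.83 in stem.

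**Figure D5:**
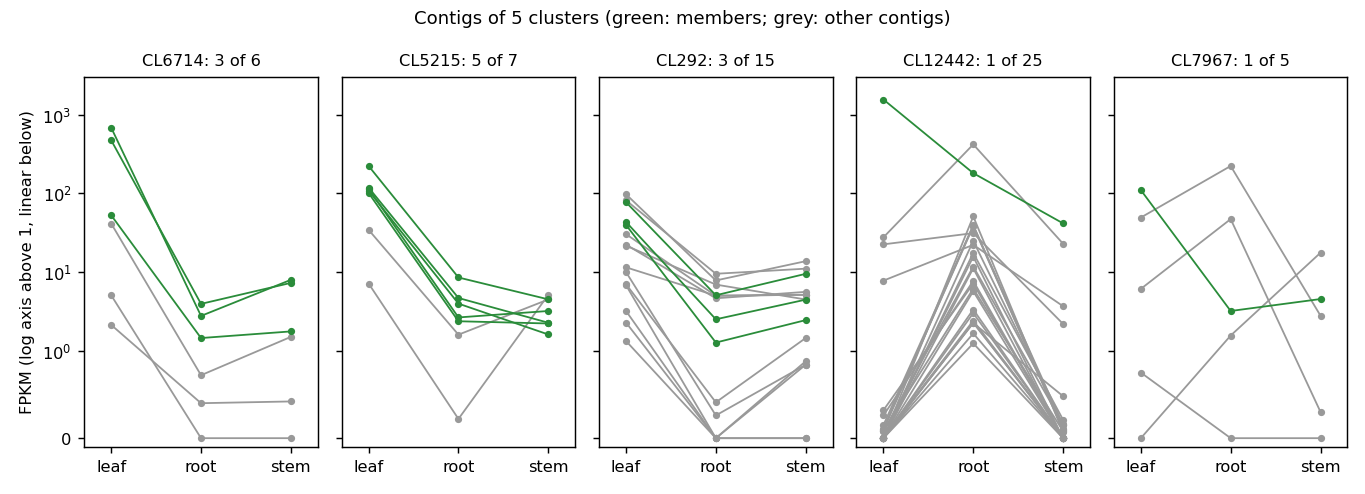
FPKM of every contig of clusters CL6714, CL5215, CL292, CL12442 and CL7967 in leaf, root and stem (log axis above 1 FPKM and linear below), with 1 line per contig, leaf-high contigs in green and the others in grey. In CL12442 the 24 grey contigs are highest in root, while CL12442.Contig4 has 1558 FPKM in leaf.

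None of the terpenoid enzymes that the study cloned was among the 84. Terpenoids are built from isopentenyl diphosphate, which plants make by the mevalonate pathway in the cytosol and by the methylerythritol phosphate (MEP) pathway in plastids, and the methods of the study give the identifiers of 7 cloned unigenes of these pathways. All 7 were shared. The highest smaller fold was that of ArHDS, a late enzyme of the MEP pathway, with 142 FPKM in leaf, against 32.4 in root and 70.6 in stem, or 4.39-fold over root and 2.01-fold over stem. ArDXR, the second enzyme of that pathway, had 11.02 FPKM in leaf, against 4.83 in root and 5.75 in stem, and ArMVD, the last enzyme of the mevalonate pathway, had 16.2, 12 and 11.8 FPKM. These 3 were highest in leaf. ArHDR, which forms the end products of the MEP pathway, had 23.4 FPKM in leaf, against 12.2 in root and 40.3 in stem. ArDXS, its entry enzyme, had 4.16 FPKM in leaf, against 2.01 in root and 71.8 in stem. ArHMGR1 and ArHMGR2 encode the enzyme that forms mevalonate. ArHMGR1 had 10.3 FPKM in leaf, against 59.5 in root and 144 in stem, and ArHMGR2 had 8.08, 175 and 10.7 FPKM. With 0.343% of all shared unigenes in the set, 0 of 7 is near the background and is not a result about these enzymes.

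Which unigenes made up the set depended on the scale, and more so where root was the closer tissue. After median-ratio scaling 75 unigenes met the same rule, and 60 of these were among the 84, which is 80.0% of the 75 and 71.4% of the 84. Of the 62 leaf-high unigenes with stem above root, 50 remained, and of the 22 with root above stem, 10 remained. Median-ratio scaling shifts the log2 ratio of leaf to root by -0.64 and that of leaf to stem by -0.02. CL12442.Contig4 was among those lost, at 5.53-fold over root, while the other 5 of the 6 with the highest leaf FPKM remained. After rescaling each library to a sum of 1,000,000 there were 107, of which 73 were among the 84, or 68.2% of the 107 and 86.9% of the 84. As deposited, every library summed to less than 1,000,000, so this rescaling raised all values. The floor of 1 thus admitted unigenes below 1 FPKM, and the other shared unigenes numbered 28,066, against 24,421 as deposited. The count of 107 therefore mixes a change of scale with a looser floor.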

How the data were processed

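The authors filtered the reads, built unigenes from them with Trinity and TGICL, aligned each library to these with Bowtie2 and estimated FPKM with RSEM. The sample labels also name Trimmomatic. The deposited values are FPKM to 2 decimals, and no column of the table was left out. FPKM is relative to the mapped fragments of a library, so abundant unigenes lower all others in it. The suffix shared by all identifiers was dropped.

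The 84 unigenes, the lists and the rules for naming unigenes were chosen with earlier results of these data known. The folds were taken from FPKM without a pseudocount. Cluster sums add every contig with the same prefix. The named unigenes are the 6 highest in leaf, the 6 with the largest smaller fold, the 3 nearest each side of the 8-fold and of the 1 FPKM thresholds, the 3 with the highest and lowest ratio of stem to root, all in clusters with 2 or more members, the 7 cloned enzymes, the 3 with the smallest fold of the cluster sum, and the contigs beside them highest in root and in stem. CL2361.Contig1, Unigene7408 and the other contigs given in CL2060, CL5136, CL5215, CL6714 and CL7967 were named after their values were seen. No statistical test between tissues was made. Computations ran in Python 3.11.15 with pandas 2.3.3, numpy 2.4.6 and scipy 1.17.1, and plots in matplotlib 3.10.9. The scripts that apply the rule and the scaling were tested on simulated data. There the raised unigenes lay well past the 8-fold and the 1 FPKM thresholds and were drawn independently. Calls near these thresholds, or for contigs that share fragments, were thus not covered. Depth per value is unknown.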

Additional observations from a re-analysis of the deposited data

How the results depend on the processing

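No paired analysis was possible because each tissue has 1 library, so no library could be left out either. Applied to FPKM above 0, 0.5, 2 and 5 in place of 1, the rule gave 603, 151, 51 and 19 unigenes, of which 452, 122, 39 and 16 had stem above root and 280, 79, 32 and 11 were cluster contigs. More than 4-fold gave 540 unigenes (418 with stem above root, 287 contigs) and more than 16-fold gave 22 (13 and 16). Adding 1 to each FPKM gave 50 (38 and 31), and summing the contigs of clusters gave 55 clusters and singletons. The median smaller fold was 11.2 above 0 FPKM, 5.15 past 4-fold, 24.9 past 16-fold and 11.5 with 1 added, against 9.80. The share of leaf FPKM was 2.73% above 0 FPKM, 0.684% above 5 FPKM, 7.31% past 4-fold and 0.61% past 16-fold, against 1.53%. Of the 51 contigs, 40 had a cluster sum past 4-fold and 11 past 16-fold, against 21 past 8-fold. Looser limits admit more unigenes and stricter ones fewer by construction, adding 1 lowers every fold above 1, and cluster sums count another unit. The other 21 of 53 values, TPM and median-ratio scaling among them, stayed within 1.5 times the value reported or, for the median fold, within its order-statistic interval of 9.35 to 11.1 over the 84 unigenes. That interval treats the 84 as independent, which contigs of a cluster are not, and the rule cut their folds at 8. It is a yardstick only and measures no spread between plants or libraries. The rounding check and the cluster sum over shared contigs only, with 25 of 51 contigs past 8-fold, were chosen after seeing the data. For stem above root, only the count stayed within 1.5 times. It was 52 of 75 with the rule on median-ratio values, where 48.2% of the other shared unigenes had stem above root. As deposited these were 62 of 84 and 70.6%. Without replicates the spread between plants cannot limit any of these values.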

Other observations

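Leaf-high and root-high contigs met in 1 cluster. The mirrored rule, with root or stem in place of leaf, gave 63 unigenes more than 8-fold higher in root than in both other tissues and 106 in stem. Cluster contigs made up 60.7% of the leaf list, against 66.7% of the root list and 68.9% of the stem list. These contigs belonged to 40 clusters in the leaf list, 34 in the root list and 56 in the stem list. CL12442 was the only cluster found in a pair of lists, with Contig4 in the leaf list and Contig1 in the root list, while no cluster of the stem list was in another. The highest-ranking leaf-high unigene and a contig with 419 FPKM in root thus carry the prefix of the same cluster.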
